A study of Rattus norvegicus with 113 samples.

Results

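The comparison described here set the cerebral cortex of rats killed 2 weeks after traumatic brain injury (TBI) against the cortex of naive rats of the same interval, across all genes on the array. Its members were the 4 arrays labelled as cortex after TBI and the 4 arrays labelled as naive cortex at 2 weeks. These were 8 of the 113 arrays of the series. They were picked by label, but the comparison was chosen with earlier results of these data known. The naive group was taken as reference because a sham array of this interval stood apart. The rats were adult male Sprague-Dawley rats. TBI was a parasagittal fluid percussion injury, in which a fluid pulse strikes the exposed dura through a hole drilled in the skull under isoflurane. The labels call it moderate and the study's methods call it severe. Naive rats received neither anesthesia nor surgery, so the contrast holds the anesthesia, the craniotomy and the recovery from both together with the injury itself. After death a small piece of cortex was taken beside the injury and its RNA hybridized, 1 rat per array by the study's methods. The question the comparison addresses is which transcripts still differ from baseline cortex once the acute phase has passed.

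A blow to the brain is followed by a slower secondary response. Microglia, the resident macrophages of the brain, and macrophages that enter from the blood engulf debris, load antigen and release complement and chemokines, while astrocytes swell, divide and build a scar around lost tissue. Neurons around the injury can lose synapses and activity, and cholesterol, which the adult brain makes for itself, is both released from broken myelin and made anew. A piece of tissue was measured as a whole, so more cells of a type and more RNA per cell cannot be told apart.

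Values are log2 signals of single probes relative to the 75th percentile of the same array, which was set to 0, and a gene was read from its brightest probe. The TBI arrays had 53.6% to 56.4% of the 45598 probes well above background, and the naive arrays 53.8% to 65.2%. The markers of cortical tissue Slc17a7, Snap25, Fezf2 and Mbp were well above background on all 8 arrays. The upper end of the naive range was naive replicate 4, whose dim probes read higher than those of the others. Its negative control signal was 120 against 62.6 to 72.9 on the other 3 naive arrays, and the log2 signal of its median probe minus its 75th percentile was -2.20. On naive replicate 1 that difference was -3.27, and on the remaining arrays it lay between -3.75 and -3.65. All 4 naive arrays shared one slide and all 4 TBI arrays another, so slide and injury cannot be told apart within these 8 arrays. The TBI slide also carried 4 cortex arrays of naive rats of the 3 month interval, which served as a second reference on the same slide and were chosen after the slides had been seen. Sham cortex of 2 weeks is given beside some results from 3 of its 4 arrays, because 93.0% of probes on sham replicate 3 were well above background.

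A probe was tested where all 4 arrays of one group or the other read it well above background. Of 24100 such probes, 1873 (7.77%) differed between TBI and naive at an adjusted p under 0.05 (limma with Benjamini-Hochberg adjustment), 1038 of them higher and 835 lower after TBI. By gene, 590 of the 11200 tested rose (5.27%) and 337 fell (3.01%), and the median log2 fold change over all genes tested was -0.03. The rises were the larger changes. The median rise was 1.11 on the log2 scale and 335 genes rose more than 2-fold, whereas the median fall was -0.54 and 24 genes fell more than 2-fold. The 4 TBI arrays all lay above the 4 naive arrays for 587 of the genes that rose. They all lay below them for 336 of the genes that fell. Such separation was seen in 10.6% and 10.8% of all genes tested. The calls came from these same arrays, so the separation follows largely from the call and is not further evidence. The 20 naive cortex arrays of the 5 intervals include these 4 naive arrays. Against all 20, the 4 TBI arrays were higher throughout for 295 of the genes that rose. They were lower throughout for 77 of the genes that fell. Over all genes tested the shares were 3.26% and 1.71%. Scaling to the array median, which shifted the median of all probes to 0.41, made 95.7% of 1045 calls higher in place of 55.4% of 1873, so directions of small changes are relative to the scale chosen. Without naive replicates 1 and 4 together, an alternative added after the data had been seen, 541 probes were called. Only naive replicates 2 and 3 remained in it, so its counts rest on fewer arrays. Without naive replicate 4 alone 1646 probes were called.

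Among the 15 largest fitted rises was Spp1, which encodes osteopontin, a matrix protein secreted by activated microglia and macrophages. Its signal was -0.07, 0.80, 0.78 and 1.54 on TBI replicates 1 to 4 and -4.75, -5.31, -5.72 and -4.14 on naive replicates 1 to 4. Naive cortex was not well above background on any array, and the rise was at least 46.0-fold (adjusted p = 0.00209). Clec7a, the receptor Dectin-1 for fungal sugars on phagocytes, was likewise at background on the 4 naive arrays and reached -1.51, 0.48, -1.09 and -0.22 after TBI, at least 17.8-fold higher (adjusted p = 0.00209). Both genes mark microglia that respond to damage. Olr1, a scavenger receptor for oxidized lipoprotein, rose by 4.11 ± 0.27 (log2 fold change ± SE, adjusted p = 0.0017) and was well above background on 1 of the 4 naive arrays. Cd68, a protein of macrophage lysosomes, was at 0.87, 1.35, 0.05 and 1.36 after TBI and at -2.83, -2.53, -3.24 and -2.89 in naive cortex, a 13.8-fold rise (adjusted p = 0.00209). These genes were named from calls whose groups did not overlap, and genes at background in naive cortex have only a lower bound, so the rises are not ranked.

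Further genes among the 15 are known from phagocytes and other immune cells. Gpnmb, a glycoprotein of lipid-laden phagocytes, rose 10.9-fold, from between -0.89 and -0.38 on the naive arrays to between 2.14 and 3.64 on the TBI arrays (adjusted p = 0.00266). Lgals3, the sugar-binding protein galectin-3, rose by 3.45 ± 0.31 (adjusted p = 0.00266) and Clec12a, an inhibitory lectin receptor of myeloid cells, by 3.57 ± 0.45 (adjusted p = 0.00607), the latter from a naive group with 2 of 4 arrays well above background. Gpr18, a receptor of immune cells, was at background in naive cortex and at least 5.33-fold higher after TBI. Timd2, a receptor for ferritin, rose by 3.59 ± 0.72 (adjusted p = 0.0258), with naive values from -6.60 to -3.01. The other 6 of the 15 were the chemokines Ccl12, Cxcl10 and Cxcl17, complement C3, the class I molecule RT1-CE5 and the interferon-induced GTPase Mx1, all described with their groups below. The plot of signals by array shows 12 genes with every sample.

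**Figure D1:**
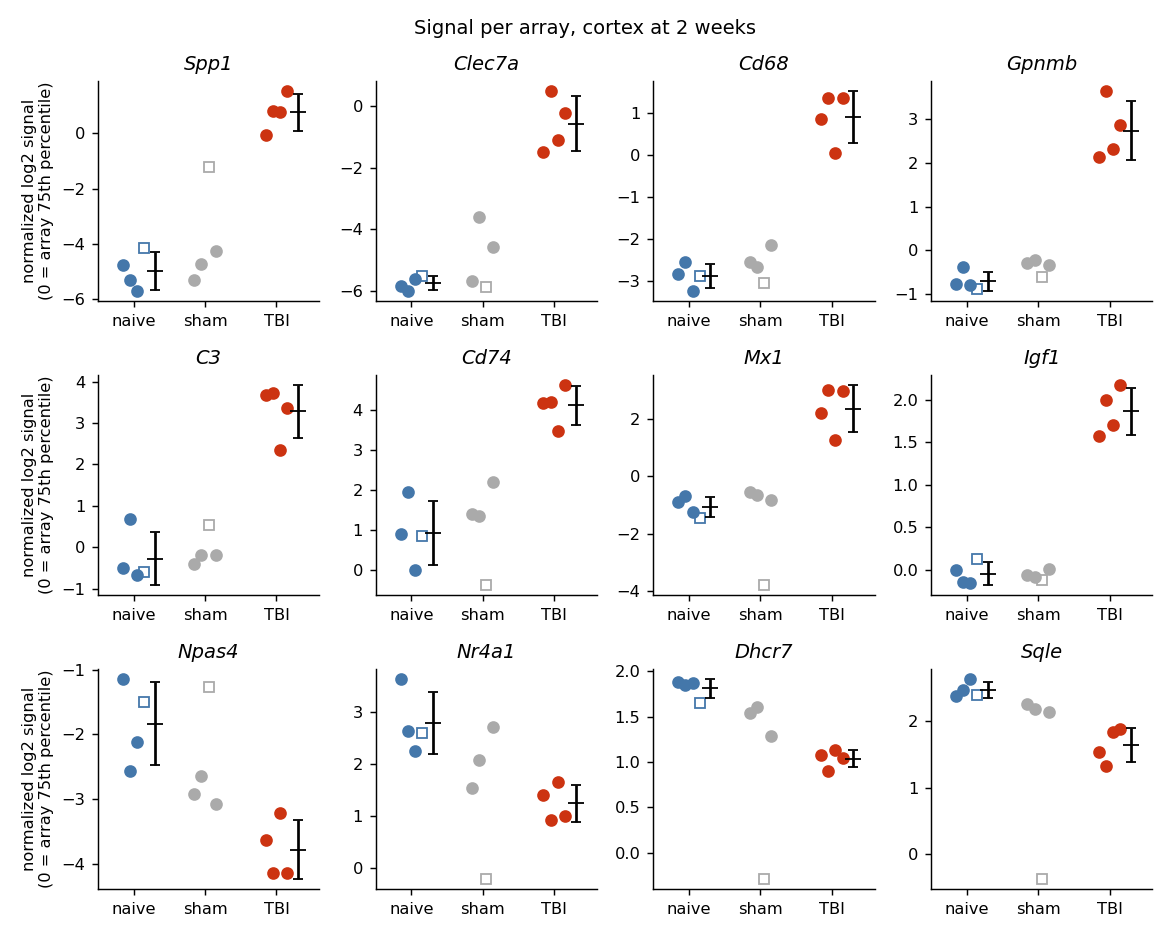
Normalized log2 signal (vertical axis, 0 is the 75th percentile of the array) of 12 genes on each cortex array of 2 weeks, in naive, sham and TBI rats. Points are arrays, open squares mark naive replicate 4 and sham replicate 3, and black lines give the mean ± SD of the 4 arrays; Npas4, Nr4a1, Dhcr7 and Sqle were lower after TBI and the other 8 higher, and Spp1 and Clec7a were at background on the naive arrays.

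Genes that define microglia rose as a group. Of 22 measured members of the microglia list, 14 rose (63.6%, against 5.27% of all genes tested) and none fell. The median log2 fold change was 1.06 over the list against -0.03 over all genes tested. Csf1r, the receptor for the growth factor on which microglia depend, was at 2.57, 2.57, 2.17 and 2.65 after TBI and at 1.10, 1.53, 0.97 and 0.56 in naive cortex, a 2.73-fold rise (adjusted p = 0.00811). Aif1, which encodes the widely used marker Iba1, rose 2.90-fold and Cx3cr1, the fractalkine receptor, 1.88-fold. Tmem119, a marker that separates microglia from blood macrophages, rose 1.85-fold (adjusted p = 0.0259). P2ry12, the purine receptor of resting microglia, was 1.89-fold higher with no overlap of the groups, at an adjusted p of 0.0508. Ptprc, the leukocyte antigen CD45 carried by microglia weakly and by blood leukocytes strongly, rose by 2.38 ± 0.18, with its spot on TBI replicate 3 left out as an outlier, and Irf8, a transcription factor of myeloid cells, rose by 2.31 ± 0.27 with 3 naive arrays well above background. Without naive replicates 1 and 4, all 14 genes that rose were still higher and 6 were called. Without replicate 4 alone 13 were called.

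Of 30 measured genes of the list for phagocytes and disease-associated microglia, 18 rose (60%, against 3.56% of all genes measured). The median was 1.15, and 1 gene fell (3.33%, against 2.03%). Trem2, the lipid receptor that drives the disease-associated state, was at 3.63, 3.34, 3.02 and 3.78 after TBI and at 1.44, 1.59, 0.96 and 1.17 in naive cortex, 4.45-fold higher (adjusted p = 0.00266). Its adaptor Tyrobp rose 4.98-fold. Igf1, a growth factor released by such microglia, rose 3.77-fold with little spread, from between -0.16 and 0.12 to between 1.57 and 2.18 (adjusted p = 0.00209), and all 4 TBI arrays exceeded all 20 naive arrays. The member that fell was Cd52, a surface glycoprotein of leukocytes, by -1.04 (adjusted p = 0.0169). It was named after its values had been seen because it was the only fall, and against the naive arrays on the TBI slide it was at 0.67. The lysosome list moved with these genes: 17 of its 30 measured members rose (56.7%, against 5.27% of all genes tested) and none fell. Its median was 0.74. In 17 members all 4 TBI arrays lay above all 20 naive arrays, as in 3.26% of all genes tested. Of the 17 rises, 9 were called without naive replicates 1 and 4, and 16 without replicate 4 alone. Ctsz, a cysteine protease, rose 4.87-fold, Laptm5 3.35-fold, the cholesterol carrier Npc2 3.27-fold, the progranulin gene Grn 2.96-fold and the protease gene Ctsd 2.29-fold. Lamp1, the abundant membrane protein of lysosomes in all cells, was 0.20 higher (adjusted p = 0.311), and Hexa 0.47 higher (adjusted p = 0.0703).

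**Figure D2:**
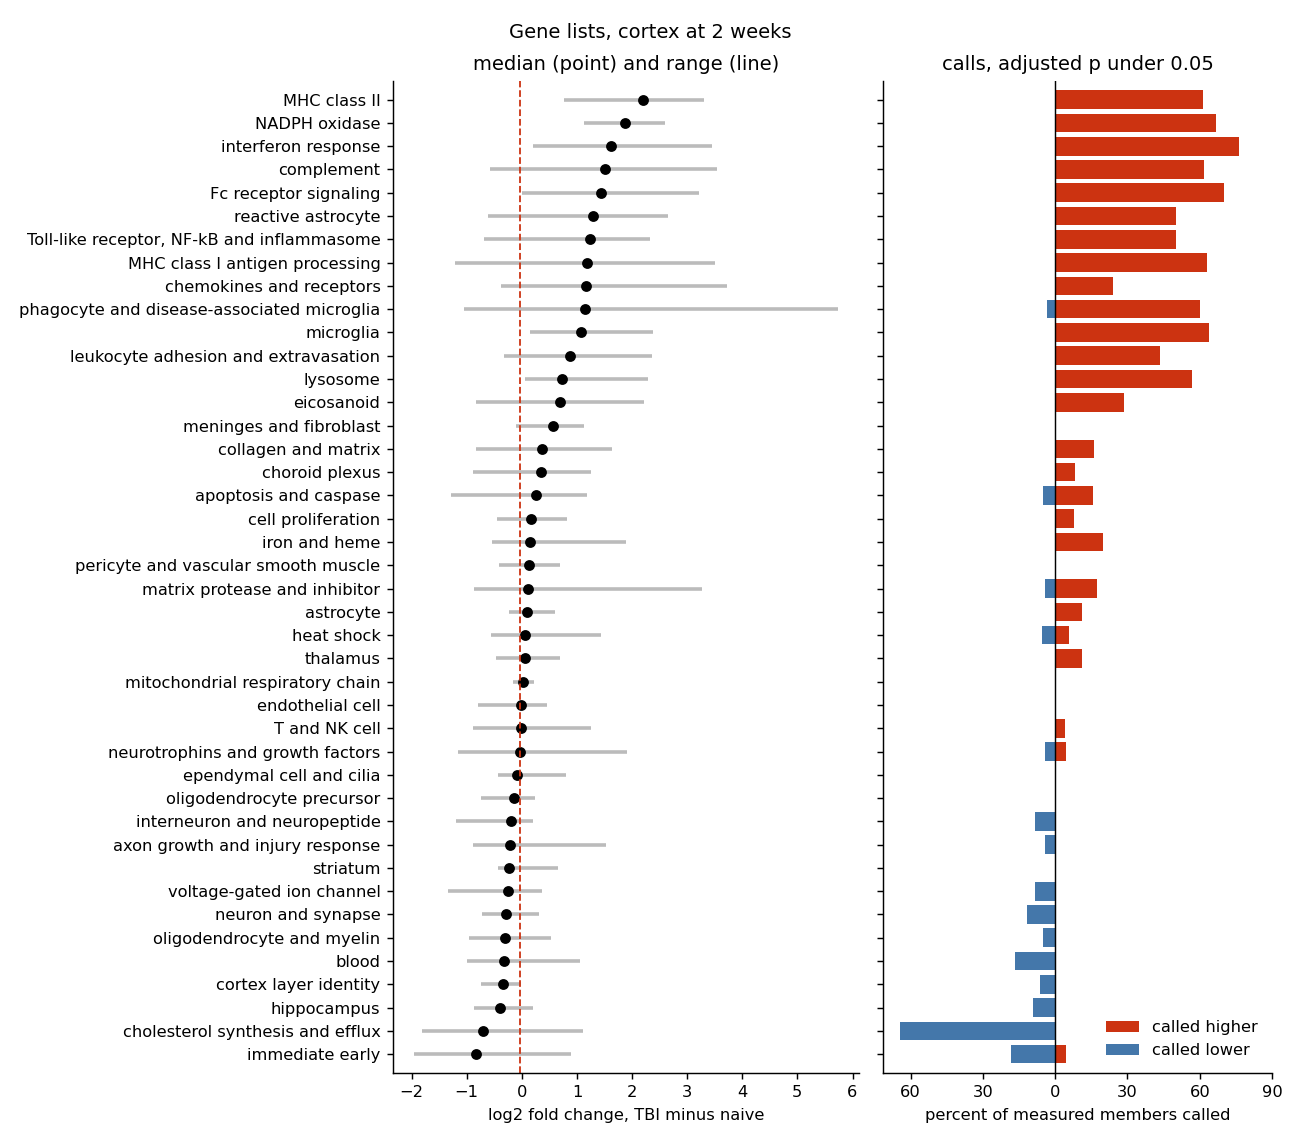
On the left, log2 fold change between TBI and naive cortex (horizontal axis) for the tested members of each gene list with at least 5 of them (the B and plasma cell and neutrophil lists, with 4 each, are not drawn), with the median as a point and the range as a line; the dashed line is the median of all genes tested (-0.03). On the right, the percent of measured members called higher or lower at an adjusted p under 0.05; of the lists drawn, class II, NADPH oxidase, interferon and complement genes have the highest medians and the immediate early and cholesterol lists the lowest, and lists with a median between -0.39 and 0 turn positive when arrays are scaled to their median.

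Complement, the protein cascade that tags debris and synapses for removal, rose in 13 of 21 measured genes (61.9%, against 3.56% of all genes measured). None fell, and the median was 1.51. The central component C3 was at 3.69, 3.72, 2.34 and 3.36 after TBI and at -0.50, 0.69, -0.66 and -0.60 in naive cortex, an 11.7-fold rise (adjusted p = 0.00408). One of the 20 naive arrays of all intervals nevertheless read 3.92, above every TBI array. The 3 chains of C1q, which start the classical pathway, rose together: C1qa 4.09-fold, C1qb 3.50-fold and C1qc 3.14-fold. C2, the next protease of that pathway, rose 4.72-fold. Serping1, an inhibitor of the pathway, rose 4.85-fold. The receptors for the released fragments rose by 1.93 ± 0.24 (C3ar1) and 1.51 ± 0.23 (C5ar1), the former with 3 naive arrays well above background. Without naive replicates 1 and 4, the 13 rises kept their direction and 4 were called. Without replicate 4 alone 12 were called.

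Receptors for antibody and the signaling proteins behind them rose in 14 of 20 measured genes (70%, against 5.27% of all genes tested). The median was 1.43 and none fell. Fcgr2b, the inhibitory receptor for IgG, was at 1.36, 1.65, 1.02 and 1.85 after TBI and at -2.06, -1.60, -1.59 and -1.77 in naive cortex, 9.34-fold higher (adjusted p = 0.0017). The shared signaling chain Fcer1g rose 3.94-fold and the high-affinity receptor Fcgr1a 2.81-fold. Among the proteins downstream, the phosphatase gene Ptpn6 rose 4.15-fold and the adaptor gene Blnk 3.04-fold. The kinase gene Syk was 0.33 ± 0.41 higher (adjusted p = 0.62), with the groups overlapping and naive replicate 4 the highest of all 8 arrays at -1.80. The phagocyte NADPH oxidase, the enzyme complex that makes superoxide, rose in 4 of 6 measured subunits (66.7%, against 3.56% of all genes measured). Ncf1 rose 6.04-fold, Rac2 4.47-fold, Cyba 3.66-fold and Ncf4 2.84-fold. The catalytic subunit Cybb was 1.13 ± 0.43 higher with overlapping groups (adjusted p = 0.133).

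Innate sensors rose too. Of 32 measured genes of the Toll-like receptor, NF-kB and inflammasome list, 16 rose (50%, against 3.56% of all genes measured) and none fell. The median was 1.23. Tlr2 rose 2.29-fold and Cd14, the co-receptor for bacterial lipid, 2.94-fold. Tlr4 rose by 1.49 ± 0.35 from a naive group with 1 of 4 arrays well above background. The inflammasome adaptor Pycard rose 5.02-fold (adjusted p = 0.00333), the sensor Nlrp3 3.10-fold (3 naive arrays well above background) and the protease gene Casp1 2.43-fold. Neither of the cytokines Il1b and Tnf was called. Il1b was well above background on 3 TBI arrays and 1 naive array and was therefore not tested, and Tnf was at -4.32 to -3.64 after TBI and at -4.05 to -2.74 in naive cortex, a difference of -0.68 ± 0.31 (adjusted p = 0.186).

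Antigen presentation rose in both classes. Of 13 measured class II genes 8 rose (61.5%, against 3.56% of all genes measured). Their median was 2.21, the highest of the 44 lists. Cd74, the invariant chain that guards the class II groove, was at 4.16, 4.18, 3.46 and 4.62 after TBI and at 0.90, 1.94, 0.00 and 0.84 in naive cortex, 9.12-fold higher (adjusted p = 0.00603). RT1-Da, a class II alpha chain, rose 9.93-fold (adjusted p = 0.00384), RT1-Bb 7.01-fold and RT1-Db1 4.62-fold, and Cd86, the costimulatory ligand, was at least 6.18-fold higher because no naive array was well above background. For Cd74 and RT1-Da no TBI array lay above the highest of the 20 naive arrays, which read 4.96 for Cd74. RT1-Ba was not well above background on any of the 8 arrays. Of 19 measured class I genes 12 rose (63.2%, against 3.56% of all genes measured) and none fell, with a median of 1.18. Of the 12, 2 were called without naive replicates 1 and 4, and 10 without replicate 4 alone. B2m, the light chain of every class I molecule, rose 2.01-fold, the peptide transporter Tap1 2.69-fold and the immunoproteasome subunits Psmb8 and Psmb9 3.04-fold and 3.12-fold. RT1-A1 rose 5.40-fold and RT1-CE5 by 3.51 ± 0.52, the latter from a naive group with 1 of 4 arrays well above background. Class I genes are near-identical copies, and a probe for one may also bind another.

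The interferon response had the largest share of rises: 26 of 34 measured genes (76.5%) rose against 3.56% of all genes measured. None fell, and the median was 1.63. Mx1, an antiviral GTPase, was at 2.23, 3.02, 1.26 and 3.00 after TBI and at -0.88, -0.70, -1.24 and -1.47 in naive cortex, a 10.9-fold rise (adjusted p = 0.00424). Irf7, the factor that amplifies the type I response, rose 8.40-fold (adjusted p = 0.0276), the ubiquitin-like modifier Isg15 6.85-fold and the antiviral enzyme gene Rsad2 5.21-fold. Ifit3, which binds foreign RNA, rose 3.96-fold. In 17 members all 4 TBI arrays lay above all 20 naive arrays, as in 3.26% of all genes tested. TBI replicate 3 was the lowest of the 4 TBI arrays for each gene named in this paragraph, for example at 1.26 for Mx1. Without naive replicates 1 and 4 all 26 rises kept their direction and 3 were called. Without replicate 4 alone 23 were called.

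Many interferon-stimulated genes carry a promoter element bound by Irf factors, and 3 promoters that hold it are shown because their genes were among those that rose. RefSeq promoter windows (GRCr8, 250 bases before to 50 after the start) were available for 26 of the measured members. The interferon-stimulated response element, searched on both strands as GAAA, any 2 bases and GAAA, occurred in 18 of them (69.2%) and in 13 of the 20 that rose (65.0%), against 1034 of 27457 promoters of the genome (3.77%). Capitals mark the match, which lies on the opposite strand in all 3 and begins at position -69 from the start in Irf7, -44 in Ifit3 and -147 in Rsad2. The windows are chr1:205799974-205800273 (minus strand) for Irf7, chr1:241527076-241527375 (plus strand) for Ifit3 and chr6:48788071-48788370 (minus strand) for Rsad2.
Irf7: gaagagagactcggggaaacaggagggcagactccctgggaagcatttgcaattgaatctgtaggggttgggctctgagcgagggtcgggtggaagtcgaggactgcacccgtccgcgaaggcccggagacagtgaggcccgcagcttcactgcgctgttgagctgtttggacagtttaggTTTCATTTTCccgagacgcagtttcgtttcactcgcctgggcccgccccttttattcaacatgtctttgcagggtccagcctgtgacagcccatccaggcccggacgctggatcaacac
Ifit3: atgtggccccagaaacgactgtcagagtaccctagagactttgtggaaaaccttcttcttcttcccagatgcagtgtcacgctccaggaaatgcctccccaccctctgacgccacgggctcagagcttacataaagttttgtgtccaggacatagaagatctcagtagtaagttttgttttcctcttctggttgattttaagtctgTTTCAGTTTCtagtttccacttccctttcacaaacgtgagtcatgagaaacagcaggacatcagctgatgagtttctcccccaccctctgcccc
Rsad2: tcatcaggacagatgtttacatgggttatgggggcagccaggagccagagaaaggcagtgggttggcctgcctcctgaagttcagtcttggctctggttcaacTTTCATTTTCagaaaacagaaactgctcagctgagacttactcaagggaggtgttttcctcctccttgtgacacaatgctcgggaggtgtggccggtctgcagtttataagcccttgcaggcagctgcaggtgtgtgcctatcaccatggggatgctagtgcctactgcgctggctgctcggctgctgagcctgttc
A match is a description of these letters and was not tested for binding, and Mx1 held none in its window.

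Some chemokines rose, and most markers of lymphocytes and neutrophils were too dim to be tested. Of 29 measured chemokines and receptors 7 rose (24.1%, against 3.56% of all genes measured). Another 12 did not pass the test and 10 were too dim to be tested. Other attractants of monocytes did not pass, Ccl7 at 1.75 (adjusted p = 0.137), Ccl9 at 1.08 (adjusted p = 0.104) and Ccl6 at 1.16 (adjusted p = 0.0804). Ccl2, the main attractant of monocytes, was at -0.78, -1.46, -2.71 and -1.56 after TBI and at background in naive cortex, at least 6.81-fold higher (adjusted p = 0.00633). Ccl12 and Ccl4 were also at background in naive cortex and were at least 4.24-fold and 5.61-fold higher. Ccl3 rose by 3.27 ± 0.30 and Cxcl10, the interferon-induced attractant of T cells, by 3.47 ± 0.48, with 1 and 2 naive arrays well above background. Cxcl17 rose by 3.62 ± 0.52 from a naive group with 1 of 4 arrays well above background and Cxcl16 rose 4.66-fold. Cxcl13, the B cell attractant, was 2.55 ± 0.83 higher (adjusted p = 0.0928) with 2 naive arrays well above background. In the adhesion list 10 of 23 measured genes rose (43.5%, against 3.56% of all genes measured). Among them were the leukocyte integrin chain Itgb2 (5.10-fold), the hyaluronan receptor Cd44 (4.07-fold) and the endothelial ligand Icam1 (1.83-fold). Of the 10, 5 were called without naive replicates 1 and 4, and 8 without replicate 4 alone. Of 25 measured T and NK cell genes only Cd4, which rat macrophages and microglia also carry, rose (2.39-fold). That is 4% of the list, near the 3.56% of all genes measured, and 18 were too dim to be tested. The T cell receptor chain Cd3e was not well above background on any TBI array, Cd3d differed by 0.02 ± 0.18, and Cd8a was well above background on 2 TBI arrays and no naive array. Of 10 measured B and plasma cell genes 6 were too dim to be tested and none of the other 4 was called. Their median was 1.51, and the list stood at 0.91 to 1.88 on the TBI arrays and at most at 0.83 on a naive array. Cd22, of B cells and microglia, was higher by 2.48 ± 0.66 with no overlap of the groups (adjusted p = 0.0575). Of 12 measured neutrophil genes 8 were too dim to be tested and none of the other 4 was called. S100a8 and S100a9 were -0.74 ± 0.38 and -0.86 ± 0.33 (adjusted p = 0.24 and 0.137), the former with 3 TBI arrays well above background. The protease gene Mmp9 was -0.87 ± 0.39 (adjusted p = 0.183), and Lcn2, an iron-binding lipocalin that reactive astrocytes also make, was 1.69 ± 0.59 higher (adjusted p = 0.108).

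Reactive astrocyte genes rose in 15 of 30 measured genes (50%, against 3.56% of all genes measured). The median was 1.30, although Gfap did not pass the test. Of the 15, 6 were called without naive replicates 1 and 4, and 13 without replicate 4 alone. Gfap, the intermediate filament by which gliosis is usually judged, was at 2.99, 3.53, 2.66 and 3.69 after TBI and at 2.37, 2.79, 2.86 and 0.82 in naive cortex, a difference of 1.01 ± 0.46 (adjusted p = 0.187). Naive replicate 4 alone was low, and TBI replicate 3 lay below naive replicates 2 and 3. Vim, the other filament of reactive astrocytes, rose 2.68-fold without overlap (adjusted p = 0.0141). The copper oxidase gene Cp rose 3.70-fold, the annexin gene Anxa1 3.47-fold, the protease inhibitor gene Timp1 3.11-fold, the calcium-binding protein gene S100a6 2.74-fold and the small heat shock protein gene Hspb1 2.72-fold. Serpina3n, a protease inhibitor that reactive astrocytes secrete, was well above background on 3 TBI arrays and on no naive array. It was not tested for that reason, and was at least 2.89-fold higher. Of 18 measured genes of astrocytes at rest 2 rose (11.1%), the water channel Aqp4 1.52-fold and Mlc1 1.51-fold. The glutamate transporter Slc1a2 differed by 0.04 ± 0.12 (adjusted p = 0.86).

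Neuronal genes differed by small amounts in the other direction. Of 43 measured neuron and synapse genes 5 fell (11.6% against 3.01% of all genes tested) and none rose, with a median of -0.28. Slc17a7, the vesicular glutamate transporter of cortical excitatory neurons, was at 0.50, 0.25, 0.56 and 0.65 after TBI and at 1.01, 1.11, 0.92 and 1.26 in naive cortex, a 1.50-fold fall (adjusted p = 0.0247). The AMPA receptor subunit Gria1 fell 1.65-fold, the adhesion protein gene Nlgn1 1.51-fold, the synaptic vesicle protein gene Syp 1.47-fold and the kinase gene Camk2b 1.42-fold. Snap25 and the inhibitory marker Gad1 were -0.16 and -0.17 with adjusted p of 0.221 and 0.289. Among voltage-gated channels 3 of 35 fell (8.57%, against 2.03% of all genes measured). They were the calcium channels Cacna1a (-0.74) and Cacna1g (-0.62) and the potassium channel Kcnq5 (-0.47). Among interneuron and neuropeptide genes 2 of 24 fell (8.33%), Nptx2 by -0.48 and Crh by -0.39. Pvalb and Sst, which mark the main classes of interneuron, were 0.18 ± 0.09 and -0.48 ± 0.21 and did not pass. Without naive replicates 1 and 4 none of the 10 genes that fell in these lists was called. Without replicate 4 alone, 4 of the 5 synapse genes and 2 of the 3 channel genes were called, and 0 of the 2 interneuron genes. Relative to the array median, none of the 10 genes that fell in these lists was still called, Crh and Kcnq5 stood at 0.0827 and 0.00315, and the medians of all 3 lists were positive but below the 0.44 of all genes tested, at 0.19, 0.23 and 0.27.

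Genes switched on by neuronal activity included some of the largest falls. Of 22 measured immediate early genes 4 fell (18.2%, against 2.03% of all genes measured). The median was -0.83, and 1 gene rose (4.55%, near the 3.56% of all genes measured). Npas4, a transcription factor induced by calcium influx in neurons, was at -3.63, -4.15, -3.21 and -4.14 after TBI and at -1.14, -2.57, -2.13 and -1.50 in naive cortex, a 3.87-fold fall (adjusted p = 0.0169). Nr4a1 fell 2.90-fold, Fos 2.11-fold and Egr1 1.77-fold. Arc, which acts at synapses, was -1.38 ± 0.40 with the groups overlapping (adjusted p = 0.0696). Maff rose 1.87-fold from a naive group with 3 of 4 arrays well above background. For Npas4 and Nr4a1 all 4 TBI arrays lay below all 20 naive arrays. Sham cortex differed in the same direction, with list medians of -0.80, -0.39 and -0.11 on replicates 1, 2 and 4 and Npas4 at -1.05 relative to naive. Relative to the array median the list stayed negative at -0.36, with 1 of the 4 falls called. Without naive replicates 1 and 4 none of them was called, and without replicate 4 alone 3 were.

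The cholesterol list was the one list in which most members fell. Of 28 measured genes 18 fell (64.3% against 2.03% of all genes measured) and none rose, with a median of -0.70. The genes that fell spanned the pathway. Hmgcs1, an early enzyme, was at 4.92, 4.33, 5.10 and 5.03 after TBI and at 5.68, 5.69, 5.84 and 5.61 in naive cortex, a 1.81-fold fall (adjusted p = 0.025). Sqle, which makes squalene epoxide, fell 1.77-fold (adjusted p = 0.015), Cyp51 1.81-fold and Dhcr7 1.71-fold (adjusted p = 0.00492). For 12 of the measured members all 4 TBI arrays lay below all 20 naive arrays, as in 1.71% of all genes tested. Abca1, which exports cholesterol, was 1.11 ± 0.34 higher with no overlap (adjusted p = 0.0776). All 18 falls kept their direction against the naive arrays on the same slide, where 11 were called, and relative to the array median, where 1 was. Without naive replicates 1 and 4 they also kept it, and 4 were called. Without replicate 4 alone all 18 were called. Sham cortex differed in the same direction, with a list median of -0.21, and the naive arrays of 3 months lay between -0.34 and -0.16.

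Few genes of myelin, vessels and energy metabolism passed the test. Of 20 measured oligodendrocyte genes only Fa2h, which hydroxylates myelin lipids, fell (by -0.95 ± 0.23). That is 5%, against 2.03% of all genes measured. The myelin proteins Mbp and Mog differed by -0.03 and -0.21 (adjusted p = 0.932 and 0.582). None of 11 oligodendrocyte precursor genes, 23 endothelial genes, 13 pericyte genes or 35 respiratory chain genes was called, and the median of the last was 0.02. The tight junction gene Cldn5 was -0.06 ± 0.18. Of 25 measured collagen and matrix genes 4 rose (16%, against 3.56% of all genes measured). Of these Tgfb1, a cytokine that limits inflammation and promotes scarring, rose 3.10-fold and its receptors Tgfbr1 and Tgfbr2 rose 2.36-fold and 1.73-fold. The fourth was Sparc, 1.67-fold. The collagens Col1a1 and Col3a1 were 0.23 ± 0.31 and 0.88 ± 0.34 and did not pass. Among matrix proteases and their inhibitors Plau, the urokinase gene, was at background in naive cortex and at least 4.81-fold higher after TBI, Mmp2 rose 2.03-fold, Timp2 1.74-fold and Timp1 3.11-fold, and Adam19 fell by -0.43 but stood at 0.0367 relative to the array median.

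Smaller groups held single changes, to be read beside the 3.56% of all genes measured that rose and the 2.03% that fell. Hmox1, which breaks down heme, rose 2.92-fold and the ferritin light chain gene Ftl1 1.49-fold, which with Cp made 3 rises among 15 measured iron and heme genes. Of 14 measured eicosanoid genes 4 rose, among them thromboxane synthase, Tbxas1, 4.63-fold and Alox5ap, the partner of 5-lipoxygenase, 2.54-fold. Of 19 apoptosis genes 3 rose, among them Casp8 and Bid by 1.19 and 0.55, and Bcl2l1, the gene of the survival protein Bcl-xL, fell by -1.28. Of 26 measured proliferation genes only Mcm3 and Aurka (7.69%) rose, by 0.83 and 0.64, while Mki67 was 0.71 ± 0.38 higher (adjusted p = 0.246). Vegfa, the main growth factor for vessels, fell 1.38-fold, though it stood at 0.00436 relative to the array median, and the axonal adhesion gene L1cam 1.46-fold. Bdnf was -0.43 ± 0.17 (adjusted p = 0.144), and Fezf2, of deep layer neurons, was the only one of 16 cortical layer genes to fall, by -0.69. Markers of neighbouring tissue were checked because they could enter with the dissection. None of 13 measured genes of meninges and fibroblasts was called, at a median of 0.56. Of 12 measured choroid plexus genes only the water channel Aqp1 rose, by 1.25 (-0.71 against the naive arrays on the TBI slide), and Ttr, an abundant product of that tissue, ranged from -1.82 to 4.42 on the TBI arrays and from 1.72 to 2.79 on the naive arrays. The red cell genes Alas2 and Slc4a1 fell by -0.57 and -0.99, and were 0.79 and 1.15 higher, respectively, when set against the naive arrays of the TBI slide, while the globin gene Hbb was -0.31 ± 0.16. In the thalamus list Prkcd rose by 0.70 and in the hippocampus list Grik4 fell by -0.57, 1 gene of each.

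For the largest falls, naive replicate 4 was the highest naive array for 9 of 15 genes and for 7 of the 15 largest rises. Without it, 14 of the 15 falls were called. Upk3a, a urothelial membrane protein, was not well above background on any TBI array and was at least 2.40-fold lower (adjusted p = 0.0382), with naive values of -4.14, -4.35, -3.94 and -1.97. Nags, which starts the urea cycle, fell by -1.74 and was well above background on 1 TBI array, and Mesp2, Pmch and Mpp2 fell by -1.55, -1.32 and -1.49 with 3 TBI arrays well above it. Dpysl3, Diras2 and Rem2, all known from neurons, fell by -1.44, -1.48 and -1.28. Against the naive arrays on the TBI slide 11 of the 15 were tested and 8 were called lower, while all 15 largest rises were called higher. The 3 that were not called lower were Dpysl3 at -0.29 (adjusted p = 0.09), Rem2 at -0.54 (adjusted p = 0.25) and Alox15, a lipoxygenase gene that fell by -1.56 against naive cortex of 2 weeks, at 0.0807 (adjusted p = 0.88). Npas4 and Nr4a1 were called there at -2.21 and -1.63, and Cdhr1, which had fallen by -1.15, at -0.83. Slc5a11 (-1.13 against naive cortex of 2 weeks) was called there too.

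The myeloid and interferon rises were also seen against the second reference. With the naive arrays of 3 months on the TBI slide in place of those of 2 weeks, 4918 probes were called, 1210 of the 1873 were called again in the same direction and 4 in the opposite one. All 14 microglia rises and all 13 complement rises were called again, as were 25 of 26 in the interferon list, 13 of 14 in the Fc receptor list and 15 of 17 in the lysosome list. Prkcd, the Fc receptor list's exception, was at -0.15 there. The 2 references differ in age, and 3 of the 4 naive arrays of 3 months carried choroid plexus signal, with that list's median between 3.64 and 4.05 above naive cortex of 2 weeks. Gfap was 2.11 higher against them (adjusted p = 0.011). Relative to naive, the medians of sham cortex were 0.09 for microglia, 0.18 for complement and for the interferon list and 0.46 for class II. The B and plasma cell and neutrophil lists, of 4 tested genes each, stood at -0.91 and -0.45.

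Injured rats differed in degree. TBI replicate 3 was the lowest of the 4 TBI arrays in each of the 14 lists of at least 5 tested genes whose median exceeded 0.7, and also in the B and plasma cell list. The microglia list stood at 1.17, 1.14, 0.62 and 1.33 above the naive mean on TBI replicates 1 to 4, the complement list at 1.57, 2.00, 0.80 and 1.66 and the interferon list at 1.66, 2.22, 0.79 and 1.87. In the cholesterol list TBI replicate 2 was lowest, and the others lay between -0.63 and -0.52. All 4 TBI arrays lay outside the range of the naive arrays of 2 weeks in each of the 10 lists plotted by array on the 75th percentile scale. Those 10 were picked out of the 44 lists, so this is not a share over all lists. In the T and NK cell and endothelial lists, which were not plotted, all 4 TBI arrays lay within that range.

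**Figure D3:**
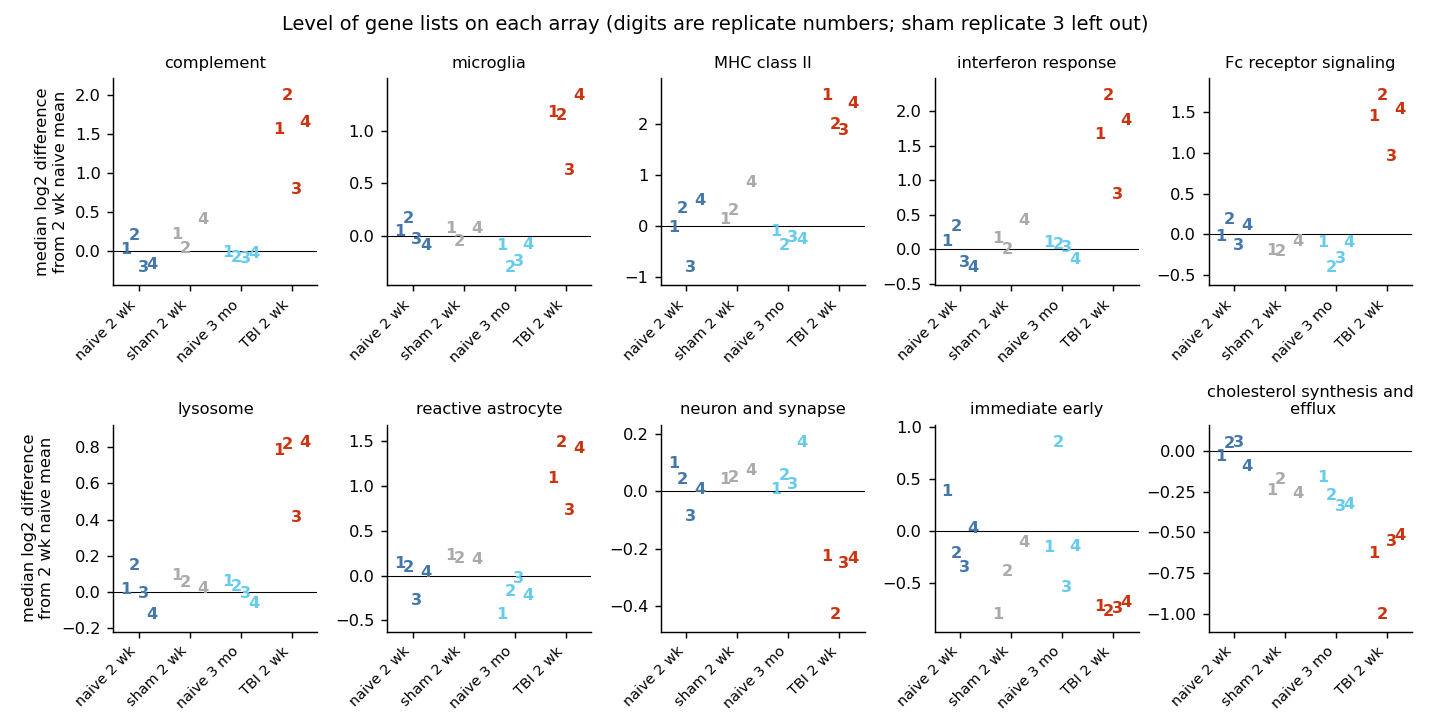
Median difference of the tested genes of 10 lists from their mean in naive cortex of 2 weeks (vertical axis, log2), for each array of naive 2 week, sham 2 week, naive 3 month and TBI 2 week cortex; digits are replicate numbers and sham replicate 3 is left out. The TBI arrays lie above the 2 week naive arrays in the 7 immune, lysosome and reactive astrocyte lists, with TBI replicate 3 lowest, and below them in the neuron, immediate early and cholesterol lists, whose TBI against naive medians become -0.36 and -0.23 (immediate early and cholesterol) or turn to 0.19 (neuron) when arrays are scaled to their median.

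The effect at 2 weeks was set against that at 24 hours in the same tissue, by a test of the difference between the 2 effects in 16 arrays. In 157 of 11796 genes the effect was higher at 2 weeks (1.33%) and in 137 it was lower (1.16%). Microglial genes were prominent among the former, 10 of 22 measured. The effect on P2ry12 was -1.36 at 24 hours and 0.92 at 2 weeks, a difference of 2.28 ± 0.44 (adjusted p = 0.0211), and Tmem119 went from -1.01 to 0.89. Csf1r and Cx3cr1 differed by 1.37 and 1.05. Trem2 was 0.04 above naive at 24 hours and 2.16 above it at 2 weeks (adjusted p = 0.00222), and Igf1 went from -0.26 to 1.91 (adjusted p = 0.000211). In the lysosome list 10 of 30 genes had a higher effect at 2 weeks, Npc2 among them with -0.06 and 1.71. Mx1 differed by 2.67 (adjusted p = 0.0272). The astrocyte enzyme Aldh1l1 was -1.26 at 24 hours and -0.12 at 2 weeks (adjusted p = 0.014). The other 5 genes with the largest positive differences, C14h1orf146, Cartpt, Cstdc2, Mfap5 and Armc3, had effects between -3.34 and -1.07 at 24 hours. The lowest was that of the neuropeptide gene Cartpt, at 0.33 by 2 weeks.

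The effects that were lower at 2 weeks belonged to the acute response. Serpina3n passed this test (adjusted p = 0.00326), but no naive array of 2 weeks was well above background, so the size of its difference is not given here. Lcn2 went from 7.42 to 1.69 (adjusted p = 0.00326), Timp1 from 4.87 to 1.63 (adjusted p = 0.00265) and Hspb1 from 4.47 to 1.44 (adjusted p = 0.00592). The neutrophil gene S100a9 went from 3.89 to -0.86 (adjusted p = 0.0193). Kng1, Kng2 and Kng2l1, the kininogens, and the myeloid gene Mcemp1 also passed it, and at 2 weeks at most 1 of the 8 arrays was well above background for each, so their differences have no measured size either. Of 26 measured proliferation genes 10 had a lower effect at 2 weeks, with Mki67 at 3.18 and 0.71 (2 naive arrays of 2 weeks well above background), Cdk1 at 2.76 and 0.32 and Mcm3 at 3.03 and 0.83. The effect on Fos was 0.87 at 24 hours and -1.08 at 2 weeks (adjusted p = 0.0193). In the cholesterol list 4 genes had a lower effect at 2 weeks, Sqle and Acat2 among them with differences of -0.75 and -0.68. TBI and naive arrays lay on different slides at 24 hours too. Without TBI replicate 3 of 24 hours the test called 2413 probes in place of 606.

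**Figure D4:**
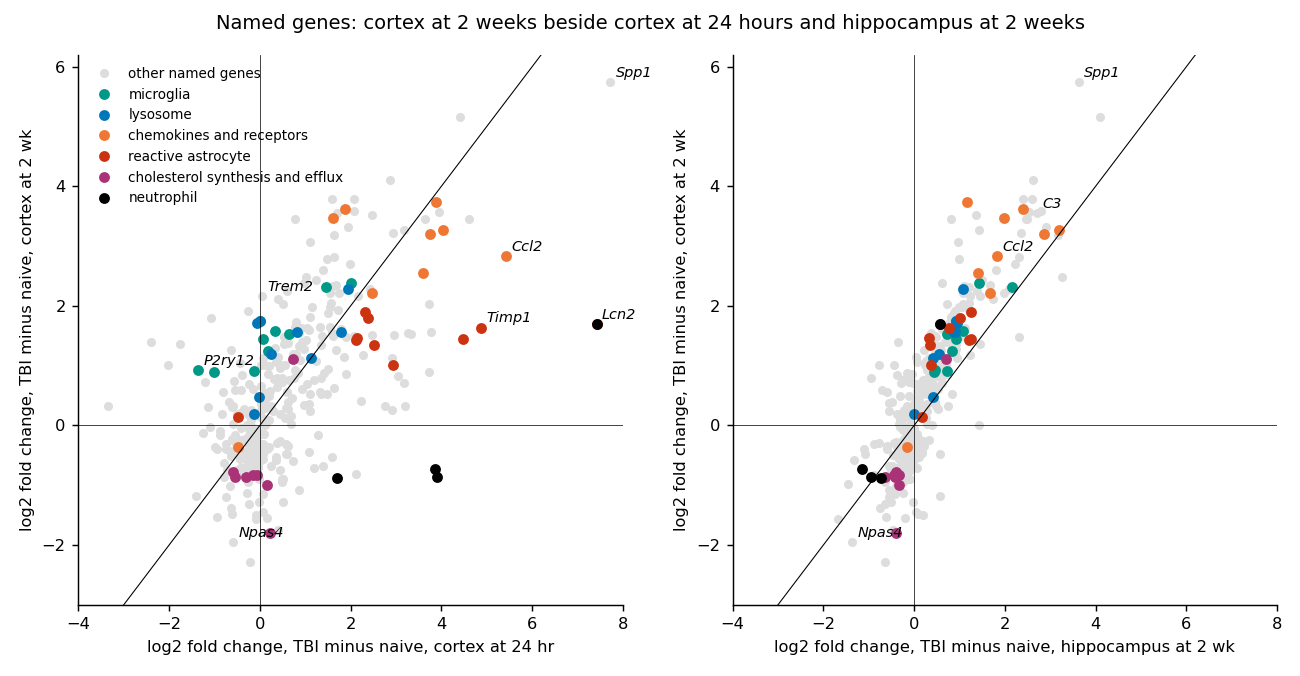
Log2 fold change between TBI and naive cortex at 2 weeks (vertical axis) against that in cortex at 24 hours (left) and in hippocampus at 2 weeks (right) for the named genes, each point a gene and the colors 6 gene lists; the line marks equal values, and genes at background in naive cortex, Spp1 and Ccl2 among them, are drawn at fitted values that are not measured sizes. Most microglia and lysosome genes lie above the line in the left panel and Lcn2 and Timp1 below it. Most named genes that rose lie above the line in the right panel. The genes drawn were named in part for their cortex effect at 2 weeks, so their place relative to the line is not a test.

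Set against the hippocampus of the same interval, the effect in cortex was higher in 76 of 11626 genes (0.654%) and lower in 36 (0.31%). Mx1 had the largest positive difference, 3.45 in cortex and 0.82 in hippocampus (difference 2.63, adjusted p = 0.0177). It was followed by the kinase gene Ripk2 (1.01, with 1 naive array of cortex well above background, and -0.45), the trafficking gene Rab13 (1.14 and 0.05), Dhrs4 (0.78 and -0.19), Smg6 (0.37 and -0.55) and the histone gene Hist1h4b (0.86 and -0.05). Among genes with a lower effect in cortex, C5h1orf94, Hmgb1-ps2, Bclaf1, Rpl17l5 and Zcchc2 were not called in the cortex comparison itself or were not tested there. Genes with larger effects in cortex did not always pass this test: C3 was 3.55 and 2.70 (adjusted p = 0.41) and Trem2 2.16 and 1.24 (adjusted p = 0.20). Cd74 was 3.19 in cortex and 3.16 in hippocampus, a difference of 0.03 (adjusted p = 0.99). Of the microglia, complement, class II, lysosome and reactive astrocyte lists no member was called in this test. Scaled to the array median it called 5 probes in place of 438, and TBI and naive hippocampus lay on different slides.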

How the data were processed

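RNA from 8 cortex samples, 4 after TBI and 4 naive, was hybridized in a single color to Agilent rat arrays. The authors scanned the arrays and extracted them with Feature Extraction 11.5.1.1, and the deposited scanner files hold, per probe, the processed signal intensity, which that software had already corrected for background. A second deposited table holds the authors' normalized values as a linear ratio to each array's own level. The methods name the median for that step, whereas the deposited ratio has its 75th percentile near 1 on each array. That table served as an alternative.

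The main values were log2 of the processed signal minus each array's 75th percentile, with outlier spots left out and repeated spots averaged. Of 45598 probes that were not controls, 46.3% had a gene symbol (16581 genes), and 909 of 974 list members were measured. A probe was tested if it was well above background on all 4 arrays of at least 1 group. Groups were compared with limma 3.58.1 in R 4.3.3 (lmFit and eBayes) with Benjamini-Hochberg adjustment over all probes tested, and a change was called at an adjusted p under 0.05. The steps were tested on simulated data. A fold for a group at background was computed against each array's lowest signal among probes well above background, and was written as at least that fold. The precision is limited by the number of arrays. Each p-value weighs the difference between groups against the spread of arrays within groups, each of which shared a slide. Any difference between slides is therefore part of the group difference. Differences of effects were fitted as interactions in 16 arrays each.

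The named genes were the 15 largest rises and falls among called genes whose groups did not overlap, key members of each list with up to 4 further members of lowest p, and the 6 largest differences in each direction of each interaction. Cd52 was outside that rule and was named after its values had been seen. The comparison, its members and the gene lists were chosen with earlier results of these data known, so list counts are descriptions. Alternatives changed the scaling, the background correction (normexp with an offset of 50 on the median signal, since no mean signal column was used), the filter on dim probes, the replicate block, array weights, the sham arrays and single arrays. A slide block could not be fitted, because each group lay on 1 slide. Some genes that the rule would name are not reported here.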

Additional observations from a re-analysis of the deposited data

Results flagged for a closer look

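In 27 of 456 groups of 4 arrays, 16 TBI and 11 naive, the array farthest out stood apart from the other 3 by more of the group's range than Dixon's test allows at the 95% level. Chance alone sets aside about 1 in 20 groups (the share of the range is given for each). TBI replicate 3 was low for Aif1 (0.84), C1qb (0.926), Csf1r (0.844), Icam1 (0.842), Ifit3 (0.89), Ncf1 (0.847), Psmb9 (0.93), Tlr2 (0.886) and the median of the lysosome list (0.882). These are myeloid, interferon-related and lysosomal genes, for which the same array was also the lowest by list. TBI replicate 1 was high for Cacna1a (0.952) and Cldn5 (0.844). TBI replicate 2 was low for Pmch (0.852) and the neuron list (0.876) and high for the neurotrophin list (0.908), and TBI replicate 4 was low for Smg6 (0.842) and high for the blood list (0.858).

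Among naive arrays, replicate 2 was high for C3 (0.88) and the heat shock list (0.87) and low for Fezf2 (0.842), Sst (0.881) and the interneuron list (0.86). Replicate 3 was low for Cxcl16 (0.932) and Vim (0.843) and high for Slc5a11 (0.896). Replicate 4 was high for Upk3a (0.83) and low for Dhcr7 (0.848) and Hbb (0.915).

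The effect of TBI differed between 2 weeks and 24 hours in cortex by the limma interaction. It was higher at 2 weeks by 3.79 for C14h1orf146, 3.67 for Cartpt, 3.12 for Cstdc2, 3.03 for Mfap5, 2.87 for Armc3 and 2.67 for Mx1. It was lower, by differences of -7.65 for Kng2, -7.50 for Serpina3n, -6.41 for Kng2l1, -5.90 for Kng1, -5.73 for Lcn2 and -5.10 for Mcemp1. Naive cortex of 2 weeks was not well above background on more than 1 array for Cstdc2, Armc3, Kng2, Serpina3n, Kng2l1, Kng1 and Mcemp1, so for these the values are fitted and not measured sizes. Between cortex and hippocampus at 2 weeks the difference was 2.63 for Mx1, 1.46 for Ripk2, 1.09 for Rab13, 0.97 for Dhrs4, 0.92 for Smg6 and 0.91 for Hist1h4b. It was -2.48 for C5h1orf94, -1.76 for Hmgb1-ps2, -1.63 for Bclaf1, -1.42 for Rpl17l5 and -1.33 for Zcchc2. No TBI array of cortex was well above background for C5h1orf94 and 1 naive array was for Ripk2, and their values are fitted ones too.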

How the results depend on the processing

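Against 1873 probes called, of which 1038 were higher and 835 lower, array median scaling gave 1045 (45 lower), quantile normalization 521 lower and no filter on dim probes 215 (200 and 15). Adding the sham arrays gave 230 (227 and 3), adding them except sham replicate 3 gave 3006 (1450 lower), array weights 3383 (1647 and 1736) and the methods' rule of a fold of at least 1.4 at an unadjusted p 3267 (1867 lower). Of the alternatives chosen after seeing the data, naive arrays of 3 months on the same slide gave 4918 (2723 and 2195), and leaving out naive replicates 1 and 4 gave 541 (428 and 113). With the replicate block 941 were called (680 and 261). The deviations of same-numbered samples correlated at 0.166, 0.034, 0.153 and 0.0188, so the numbers were not taken as pairs, although each TBI sample correlated best with its own number. Leaving out 1 array gave 527 to 1646 probes (391 to 952 higher, 124 to 792 lower), the count falling by over 1.5 times without naive replicate 1 (543) or 2 (999) or TBI replicate 1 (575), 2 (556) or 4 (527).

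For the difference between 2 weeks and 24 hours (606 probes), array median scaling gave 282, quantile normalization 248, no filter 50 and leaving out 1 array 126 to 2413, the highest without TBI replicate 3 of 24 hours. For cortex against hippocampus (438), they gave 5, 82, 24 and 99 to 759, and the replicate block 155.

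Of 144 genes reported as changed, 34 were called in the same direction under every alternative that tested them, and 10 reversed under at least 1. The rest lost their call under at least 1 alternative without reversing. Array median scaling gave Adam19 0.0367, Crh 0.0827, Kcnq5 0.00315 and Vegfa 0.00436. The 3 month naive arrays gave Alas2 0.79, Alox15 0.0807, Aqp1 -0.71, Cd52 0.67, Prkcd -0.15 and Slc4a1 1.15. The causes were not tested. A slide block could not be fitted. Signal over background limits the 86 genes that rose and 7 that fell with an array of the dimmer group at background.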

Other observations

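Lists for other regions and cells, which could enter with the dissected piece, held few changes. None of 11 measured striatum genes and none of 10 measured ependymal and cilia genes was called. In the heat shock list of 18 measured genes Hspb1 rose (5.56%, against 3.56% of all genes measured). Dnajb5, a cochaperone gene, fell by -0.56 (5.56%, against 2.03%).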
